A study of Mus musculus with 4 samples.

Results

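Apolipoproteins are the protein parts of the particles that carry fat and cholesterol in blood, and the 10 genes described here encode 9 of them and the factor that loads fat onto apolipoprotein B. They are Apoa1, Apoa2, Apoa4, Apoa5, Apob, Apoc1, Apoc3, Apoe, Apom and Mttp. They were chosen by name for their function, and all 10 were found among the 24063 gene symbols of the deposited tables and among the 13129 genes called expressed, those with a mean of at least 1 CPM (count per 1000000 counts over genes). The samples were 4 mouse liver tumours, named hepatocellular carcinomas in the study's design text, with the replicate numbers 1, 5, 9 and 10. All 4 carried the label MYC;PMEPA1 overexpression, from genes delivered into mice of strain C57BL/6, given as C57BL6/J in the sample titles, by hydrodynamic tail vein delivery, in which a large volume is pushed quickly into the blood and the DNA reaches mainly hepatocytes. The animals had no treatment, and their age is not stated in the labels. The labels also list 8 to 10 passages, which is a term for cultured cells, and leave unsaid if each tumour had its own animal, so p-values measure only the spread between these 4 libraries, which may be technical. There was 1 group and no control, so no level here can be called raised or lowered by MYC or PMEPA1. The mouse genes Myc and Pmepa1 had 4.86, 6.84, 8.58 and 7.40 CPM, and 2.43, 7.28, 4.19 and 0.922 CPM, in tumours 1, 5, 9 and 10, and the species of the delivered sequences is not given in the labels.

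The liver releases triglyceride in very low density lipoproteins (VLDL), each built around apolipoprotein B, which the microsomal triglyceride transfer protein Mttp fills with lipid in the endoplasmic reticulum. It also starts high density lipoproteins (HDL) by secreting Apoa1, the main HDL protein, which takes up cholesterol from cells. Small exchangeable apolipoproteins then move between particles and set how fast lipoprotein lipase empties them and how fast receptors clear them.

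Libraries held 41547938 to 51939623 counts over genes, and 3 counts corresponded to 0.0524 to 0.0892 CPM after scaling. The lowest count of any of the 10 genes was 591, for Apoa5 in tumour 5. Depth was therefore not the limit for these genes, and the number of tumours was. The libraries were not alike in other respects. Across genes, the rank correlation of transcript length with the log2 deviation from the 4-tumour mean was -0.27 in tumour 10, against 0.23, 0.14 and 0.06 in tumours 1, 5 and 9. The 670 expressed genes with transcripts of at most 750 bases had a median deviation of 0.31 log2 units in tumour 10, against -0.17, -0.12 and -0.05 in tumours 1, 5 and 9.

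The 10 genes took 0.903%, 1.04%, 1.68% and 1.83% of the gene counts of tumours 1, 5, 9 and 10. The exact Clopper-Pearson 95% intervals were 0.900 to 0.905%, 1.04 to 1.05%, 1.68 to 1.68% and 1.82 to 1.83%, and they cover counting error only. These shares use raw counts without TMM scaling, and on that scale tumours 1 and 5 formed a lower pair and tumours 9 and 10 a higher pair. With TMM scaling the 10 genes summed to 8192, 10137, 15308 and 22789 CPM in tumours 1, 5, 9 and 10. Tumours 9 and 10 were thus not a pair on the scale used for the levels below. As levels per kilobase of transcript, Apoe was the highest of the 10 at 4387 ± 2886 CPM per kilobase, followed by Apoa1 at 3529 ± 1616 and Apoa2 at 2815 ± 2392 (SD, n = 4 each). These stood above 99.9% of expressed genes on that scale. Apoc3, Apoa4 and Apoc1 followed at 601 ± 1060, 525 ± 251 and 522 ± 600 CPM per kilobase, then Apom at 184 ± 138, Apob at 103 ± 20.2, Mttp at 95.7 ± 17.1 and Apoa5 at 66.9 ± 81.8 (SD, n = 4 each). The ranges over tumours overlapped for every pair of neighbours in this order. Apoe was above Apoa1 in 2 of the 4 tumours, Apoc3 was above Apoa4 in 1 of 4, and Apoa2 was above Apoc3 in all 4.

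**Figure D1:**
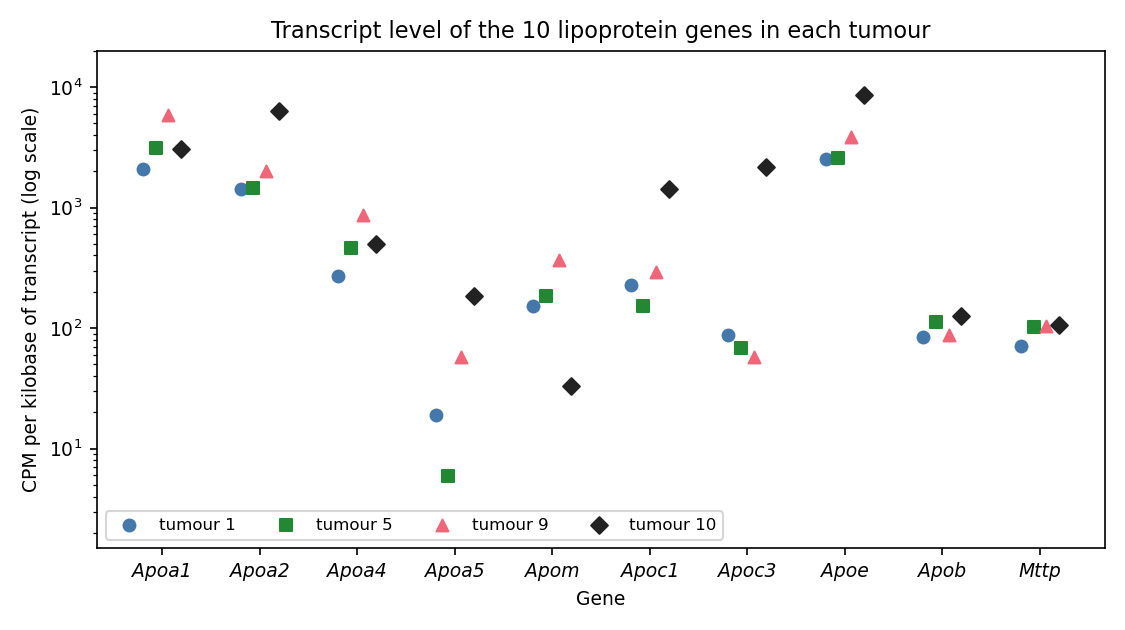
Level of each gene in each tumour, as CPM per kilobase of transcript on a log axis, with 1 point per library. Apoe, Apoa1 and Apoa2 lie at the top in all libraries; tumour 10 stands above the others for Apoc3 (2190.0 against 58.0 to 86.9) and below them for Apom (32.8 against 151.7 to 366).

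All 10 genes varied between tumours beyond counting error (Poisson heterogeneity test, Benjamini-Hochberg adjusted over all genes), but so did 98.7% of all expressed genes. All 10 also did so with 5% of technical variation added to the model, against 94.1% of all genes. The SD of log2 CPM over the 4 tumours had a median of 0.92 for the 10 genes and 0.45 for all expressed genes. An SD of at least 1 was seen for 5 of the 10, Apoa2, Apoa5, Apoc1, Apoc3 and Apom, against a background of 16.6% of genes. The SDs ran from 0.28 for Apob to 2.49 for Apoc3, at percentiles 26.5 and 97.5 of all expressed genes. The spread depended on tumour 10: without it the median SD of the 10 genes was 0.40, against 0.32 for all genes, and only Apoa5 kept an SD of at least 1, against 11.4% of all genes.

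Tumour 10 had the highest level of 7 of the 10 genes, where 35.8% of all genes were highest, and the lowest level of 1, Apom, where 32.4% of all genes were lowest. Tumour 9 had the highest level of the other 3, Apoa1, Apoa4 and Apom, where 21.6% of all genes were highest. Tumours 1 and 5 had the highest level of 0, where 21.4% and 21.2% of all genes were highest. Tumour 1 had the lowest level of 6, tumour 5 of 2 and tumour 9 of 1, where 21.8%, 20.3% and 25.5% of all genes were lowest. With total counts in place of TMM scaling, Mttp was highest in tumour 9 and Apob in tumour 5, and 5 of the 10 were highest in tumour 10, against 20.0% of all genes. Without tumour 10, 8 of the 10 were highest in tumour 9, against 35.8% of all genes. Each tumour was also tested against the other 3 with edgeR's quasi-likelihood test, which asks whether it departs by more than those 3 differ among themselves. With adjustment over all genes and the 4 tumours together, 0 of the 10 genes passed in each tumour, and 0% of all genes. At an unadjusted p under 0.05, 5 of the 10 genes passed in tumour 10, 4 higher and 1 lower, against 13.9% and 8.23% of all genes, and they were Apoa2, Apoc1, Apoc3, Apoe and Apom. None passed in tumour 1, where 0.427% of all genes were higher and 0.289% lower, in tumour 5 (0.617% and 0.305%) or in tumour 9 (3.76% and 1.9%). Adjusted for tumour 10 alone, Apoa2, Apoc1 and Apoc3 passed, 3 of the 10, against 1.75% of all genes. The DESeq2 Wald test, adjusted over all genes and tumours, called those 5 of the 10 in tumour 10 that passed unadjusted in edgeR, against 10.4% of all genes. It called 1 in tumour 5, Apoa5, against 0.358%, and 0 in tumours 1 and 9, against 0.221% and 2.52%. Fitted log2 differences of at least 1 in size numbered 20. In tumour 10, 5 genes were at least 1 higher and 1 at least 1 lower, where 13.0% and 14.3% of all genes were. In tumour 9 these counts were 3 and 2, against 8.24% and 9.77%, in tumour 5 they were 0 and 4, against 3.55% and 12.8%, and in tumour 1 they were 0 and 5, against 3.33% and 10.9%. For tumours 1, 5 and 9 the other libraries include tumour 10, so a high level there lowers their differences. Without tumour 10, the differences of Apoc3 in tumours 1, 5 and 9 were 0.47, -0.09 and -0.43. Those of Apoc1 were 0.048, -0.77 and 0.61, and those of Apoa2 in tumours 1 and 5 were -0.28 and -0.24. Of the differences of at most -1, those of Apoa4 in tumour 1 (-1.30) and Apoa5 in tumour 5 (-2.69) stayed below -1. Without tumour 9, edgeR called Apoa2, Apoc1, Apoc3, Apoe and Apom in tumour 10, 5 of the 10 genes, against 3.19% of all genes.

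**Figure D2:**
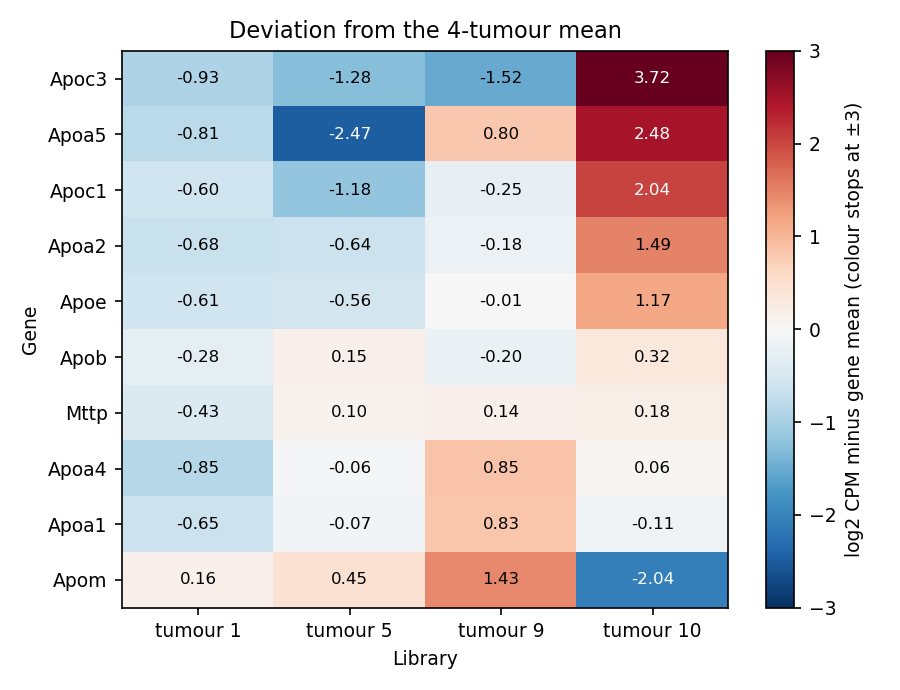
Log2 CPM of each gene in each tumour minus that gene's mean over the 4 tumours, with red for higher and blue for lower. Tumour 10 spans 3.72 (Apoc3) to -2.04 (Apom), while Apob and Mttp stay within 0.43 of their means in every library.

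Apoc3 varied most. Its protein slows lipoprotein lipase and the uptake of remnant particles by the liver. Apoc3 (NM_001289755, GRCm38 chromosome 9, 46232933 to 46235636, minus strand) had 1382 CPM in tumour 10, against 54.9, 43.1 and 36.6 CPM in tumours 1, 5 and 9, from 46477 counts against 3140, 1848 and 1965. Tumour 10 was 25.2 times the next highest library, and the other 3 lay close together, with an SD of log2 CPM of 0.30 among them. The fitted log2 difference of tumour 10 from the other 3 was 4.94 ± 0.29 (SE). Its adjusted p was 0.0876 in the edgeR test over all genes and tumours, 0.0226 in edgeR adjusted for tumour 10 alone, and 3.59e-42 in DESeq2. Without the filter on low genes, the edgeR test over all genes and tumours gave an adjusted p of 0.00724, where it called 0.642% of all genes in tumour 10. The 4 deposited transcript rows of Apoc3 held 46245 to 46477 counts in tumour 10, and 1816 to 1848 in tumour 5, so the counts do not tell its transcripts apart.

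Apoc1, a small protein of VLDL and HDL, followed tumour 10 less steeply. Apoc1 (NM_007469, chromosome 7, 19689481 to 19692660, minus strand) had 786 CPM in tumour 10, against 126, 84.5 and 161 CPM in tumours 1, 5 and 9. Tumour 10 lay 2.67 ± 0.37 (SE) log2 units above the others, with an adjusted p of 0.169 in edgeR over all genes and tumours, 0.0477 for tumour 10 alone and 6.89e-07 in DESeq2. Apoe, the ligand by which remnants bind the LDL receptor and its relatives, is made by hepatocytes and macrophages. Apoe (NM_009696, chromosome 7, 19696109 to 19699188, minus strand) had 10788 CPM in tumour 10, against 3140.4, 3253 and 4770.5 CPM in tumours 1, 5 and 9. Tumour 10 was 2.26 times the next library and tumours 1 and 5 were nearly equal. The log2 difference was 1.54 ± 0.29 (SE), with an adjusted p of 0.254 in edgeR over all genes and tumours, 0.0745 for tumour 10 alone and 0.00388 in DESeq2.

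The 5 genes of HDL proteins and their relatives did not share an order of tumours. Apoa2, the second most abundant HDL protein (NM_013474, chromosome 1, 171225054 to 171226379, plus strand), had 3324 CPM in tumour 10, against 738, 759 and 1045 CPM in tumours 1, 5 and 9. Its log2 difference in tumour 10 was 1.97 ± 0.27 (SE), with an adjusted p of 0.169 in edgeR over all genes and tumours, 0.0477 for tumour 10 alone and 4.16e-06 in DESeq2. Apoa1 (NM_009692, chromosome 9, 46228580 to 46230466, plus strand) had 5779 CPM in tumour 9, against 2072, 3086 and 3008 CPM in tumours 1, 5 and 10. Tumour 10 was thus near the middle for Apoa1 and far above the others for Apoa2. Apoa4, which rides on HDL and on the chylomicrons of the gut (NM_007468, chromosome 9, 46240696 to 46243459, plus strand), had 1448 CPM in tumour 9, against 446, 768 and 836 CPM in tumours 1, 5 and 10. The log2 differences of tumour 9 were 1.09 ± 0.46 for Apoa1 and 1.08 ± 0.50 for Apoa4 (SE), and neither passed the edgeR test (unadjusted p = 0.0695 and 0.0868). Tumour 1 lay 1.19 log2 units below the others for Apoa4, and that difference did not pass either (edgeR unadjusted p = 0.0983).

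Apoa5, which speeds the breakdown of triglyceride by lipoprotein lipase, had the lowest 4-tumour mean per kilobase of the 10 and the second largest SD of log2 CPM, 2.13. Apoa5 (NM_080434, chromosome 9, 46268633 to 46271919, plus strand) stood at 43.6, 13.8, 134 and 430 CPM in tumours 1, 5, 9 and 10. The highest library was 31.1 times the lowest, and no 2 libraries lay close together. The fitted difference of tumour 5 was -3.87 ± 1.59 (SE) log2 units, with an adjusted p of 0.739 in edgeR and 0.0229 in DESeq2, both over all genes and tumours. That of tumour 10 was 2.75 ± 1.10 (SE), with an adjusted p of 0.719 in edgeR and 0.717 in DESeq2. Both differences depended on single libraries: that of tumour 5 was -2.69 without tumour 10, and that of tumour 10 was 3.86 without tumour 9. Apom, the carrier of the lipid signal sphingosine 1-phosphate on HDL, was the only one of the 10 with its lowest level in tumour 10. Apom (NM_018816, chromosome 17, 35128997 to 35132050, minus strand) had 23.5 CPM in tumour 10, from 789 counts, against 108, 132 and 262 CPM in tumours 1, 5 and 9. Tumour 10 was below every other library, and tumour 9 was 1.98 times the next. The log2 difference of tumour 10 was -2.83 ± 0.66 (SE), with an adjusted p of 0.367 in edgeR and 5.9e-05 in DESeq2, both over all genes and tumours. Transcripts of Apoa2, Apoc1, Apoc3 and Apom have 521, 554, 631 and 715 bases, within the class of at most 750 bases. The part of transcript length in these differences was not tested.

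The VLDL core pair varied least. Apob (NM_009693, chromosome 12, 7977648 to 8016835, plus strand) stood at 1162, 1564, 1229 and 1754 CPM in tumours 1, 5, 9 and 10, with a highest level 1.51 times the lowest. Mttp (NM_001163457, chromosome 3, 138089854 to 138144968, minus strand) had 300.4, 434, 445 and 457 CPM, a range of 1.52 times in which only tumour 1 stood below the rest. Their SDs of log2 CPM, 0.28 and 0.29, lay below the median of all genes. Mttp per transcript length was 0.842, 0.902, 1.18 and 0.848 times Apob in tumours 1, 5, 9 and 10, so these ratios also stayed within a range of 1.40 times. Mttp overlaps Trmt10a on the opposite strand by 1521 bases, and Apoa4, Apoa5 and Mttp each overlap other opposite-strand genes that are antisense or not yet classified in GENCODE M21. Whether counting used strand is not given in the sources used here, so such reads cannot be told apart.

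Ratios within a library, which do not depend on the scaling between libraries, showed which genes kept step. Apoa4 per transcript length was 0.128, 0.148, 0.149 and 0.165 times Apoa1 in tumours 1, 5, 9 and 10, a range of 1.29 times, while each of the genes varied by 2.79 times or more. Apoc3, whose gene lies between those of Apoa1 and Apoa4, had 0.719 transcripts for each of Apoa1 in tumour 10, against 0.0415, 0.0219 and 0.00991 in tumours 1, 5 and 9. The highest of these ratios was 72.6 times the lowest. Apoa5 was 0.369 times Apoa4 in tumour 10, against 0.0702, 0.0129 and 0.0664. Apoa2 was 2.10 times Apoa1 in tumour 10, against 0.676, 0.466 and 0.343, so Apoa2 per transcript length exceeded Apoa1 in tumour 10 alone among these libraries. Apoc1 was 0.164 times its neighbour Apoe in tumour 10, against 0.0906, 0.0587 and 0.0761, and Apob was 0.0146 times Apoe there, against 0.0333, 0.0433 and 0.0232. The make-up of the 10 genes' transcripts differed accordingly. Apoa1 made up 13.5% in tumour 10, against 30.3%, 37.8% and 43.3% in tumours 1, 5 and 9. Apoc3 made up 9.69% in tumour 10, against 1.25%, 0.827% and 0.429%, and Apoc1 6.27%, against 3.28%, 1.85% and 2.15%. Transcripts of Apoa2, Apoc1 and Apoc3 have at most 750 bases, while those of Apoa1 and Apoe have 988 and 1251. The part of transcript length in these ratios and shares was not tested.

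**Figure D3:**
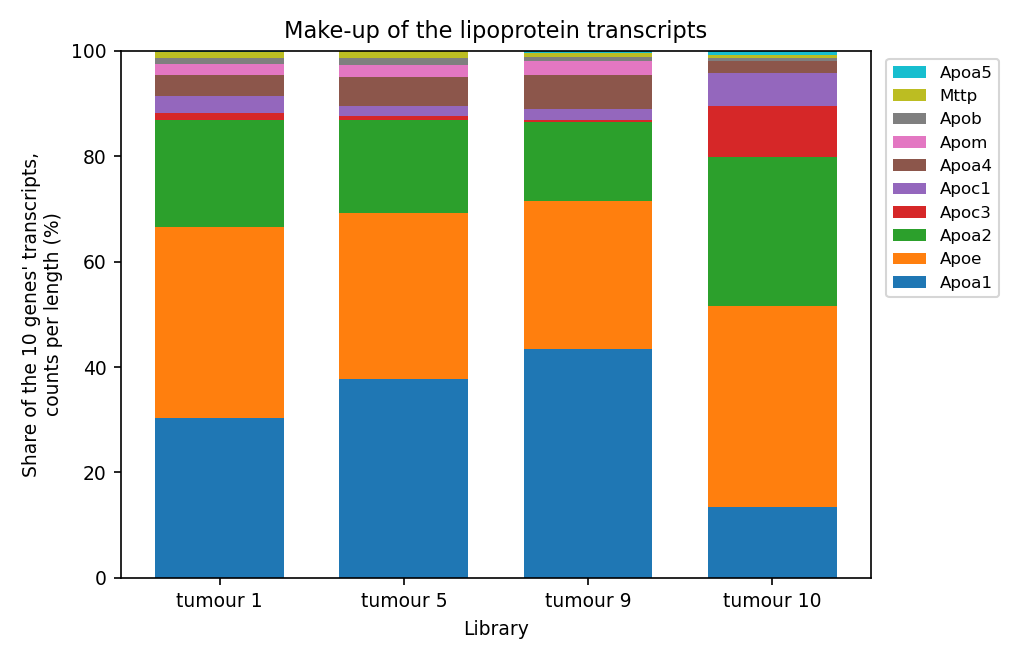
Share of each gene in the summed transcripts of the 10 genes, as counts per transcript length in percent, with 1 bar per library. Apoa1 narrows to 13.5% in tumour 10, where Apoc3 (9.69%) and Apoa2 (28.2%) widen.

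Of the 10 genes, 6 lie in a pair of clusters, in which neighbours differed in their tumour order. On chromosome 9, Apoa1, Apoc3, Apoa4 and Apoa5 lie within 43.3 kb, with 2466 bases between Apoa1 and Apoc3, 5059 between Apoc3 and Apoa4, and 25173 between Apoa4 and Apoa5. In tumour 10 the deviations along this cluster were -0.11 for Apoa1, 3.72 for Apoc3, 0.06 for Apoa4 and 2.48 for Apoa5. Among the flanking genes, Sik3, a kinase gene, had 83.0 CPM in tumour 10, against 57.3, 66.5 and 55.1, and Bud13, a splicing factor gene, had 12.5, against 19.2, 17.4 and 19.7. Zpr1, a zinc finger protein gene 1144 bases from Apoa5, had 235 CPM in tumour 10, against 86.1, 78.3 and 88.1. On chromosome 7, Apoc2, Apoc4, Apoc1 and Apoe lie within 27.6 kb. Apoc4 had 333 CPM in tumour 10, against 74.9, 113 and 122, the order of tumours seen for Apoe. Apoc2, which activates lipoprotein lipase and lies 141 bases from Apoc4, had 1254 CPM in tumour 9, against 303, 439 and 345 CPM in tumours 1, 5 and 10. Of 10 listed neighbours of both clusters, 2 were highest in tumour 10, against 35.8% of all genes, and 5 were lowest there, against 32.4%. Their median deviation there was -0.28 log2 units. With total counts 1 of the 10 was highest in tumour 10, against 20.0% of all genes. Zpr1, Sik3, Bud13 and Apoc4 were named after their values were seen.

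**Figure D4:**
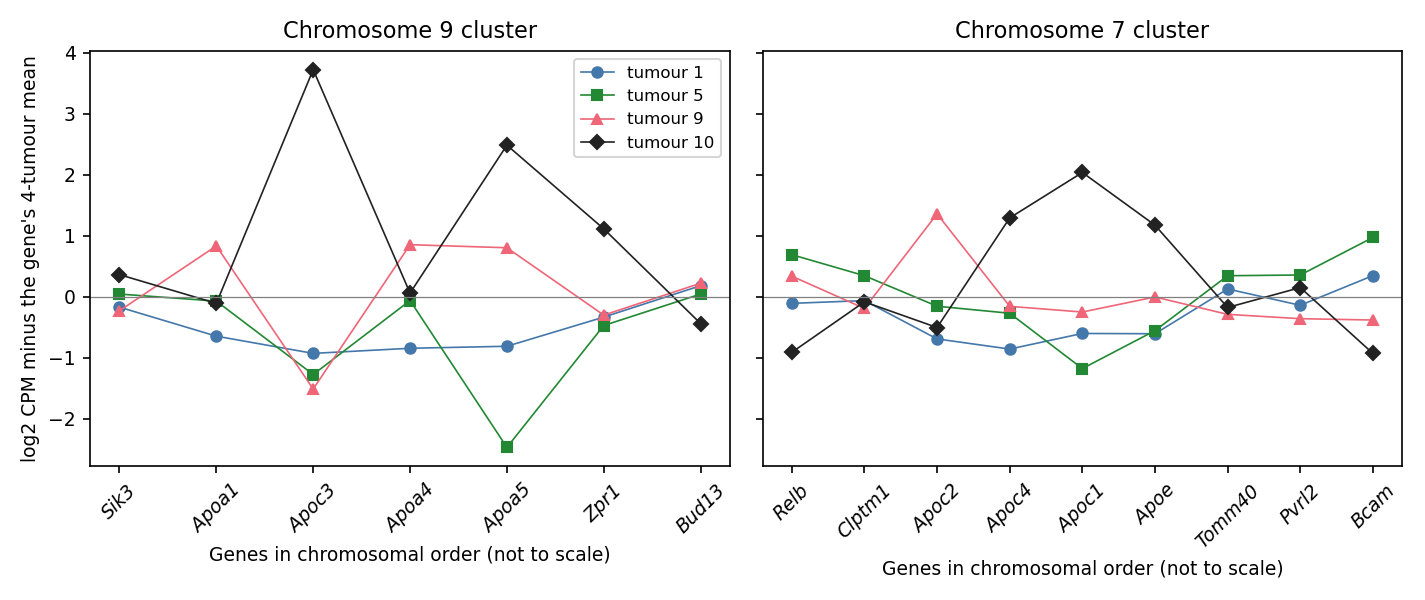
Log2 CPM minus each gene's 4-tumour mean for the genes of both clusters and their flanks, in chromosomal order and not to scale, with 1 line per tumour. Tumour 10 peaks at Apoc3 (3.72) and Apoa5 (2.48) but not at Apoa1 (-0.11) and Apoa4 (0.06); Pvrl2 is the files' symbol for Nectin2.

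Promoter sequences are shown for Apoa2, Apoa5 and Apoe, the genes with a listed promoter that were highest in tumour 10 under both scalings. Each is the 250 bases before a RefSeq transcript start on GRCm38.p6, and RefSeq promoters were found for 8 of the 10 genes, all but Apoc1 and Apoc3. Capitals mark matches, on either strand, to any of 5 motifs searched in all 32851 listed promoters of this length. The letters CAAAGTC, which resemble a binding site of the liver factor HNF4, were in 3.84% of all promoters and in 0 of the 8. The letters AGGTCA, to which many nuclear receptors bind, were in 14.0% of all promoters and in 0 of the 8. The letters GTTAAT, which form part of sites for the liver factor HNF1, were in 6.43% of all promoters and in 0 of the 8. A FOXA-type motif, TGTTTAC, was in 3.17% of all promoters and in 1 of the 8, that of Apoa2, 77 bases before the start. The TATA box letters, TATAAA, were in 12.4% of all promoters and in 3 of the 8, 212 bases before the start in Apoa2, 56 in Apoa5 and 60 in Apob. The promoter of Apoe, like that of Apoa1, Apoa4, Apom and Mttp, held no match. The RefSeq starts used for Apoa1, Apoa4, Apob, Apom and Mttp lie inside the GENCODE spans given above, so their 250 bases overlap those spans. The bases searched for Mttp, 138143419 to 138143668, lie wholly inside its span. No motif overlapped another. A match describes these letters and is not evidence of binding. Only these exact letters were searched, so the lack of a match does not show that a site is absent.
Apoa2 promoter (chr1:171224804-171225053, plus strand): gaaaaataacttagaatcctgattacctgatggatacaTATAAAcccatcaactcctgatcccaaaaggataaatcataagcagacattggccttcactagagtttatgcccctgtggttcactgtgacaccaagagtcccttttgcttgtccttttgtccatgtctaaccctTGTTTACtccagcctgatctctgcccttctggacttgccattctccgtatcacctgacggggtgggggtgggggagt
Apoa5 promoter (chr9:46268383-46268632, plus strand): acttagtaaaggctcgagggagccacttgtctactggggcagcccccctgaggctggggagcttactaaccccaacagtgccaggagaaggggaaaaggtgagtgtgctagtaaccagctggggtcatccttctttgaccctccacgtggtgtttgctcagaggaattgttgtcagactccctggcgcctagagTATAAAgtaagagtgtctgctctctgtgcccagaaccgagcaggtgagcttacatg
Apoe promoter (chr7:19699189-19699438, minus strand): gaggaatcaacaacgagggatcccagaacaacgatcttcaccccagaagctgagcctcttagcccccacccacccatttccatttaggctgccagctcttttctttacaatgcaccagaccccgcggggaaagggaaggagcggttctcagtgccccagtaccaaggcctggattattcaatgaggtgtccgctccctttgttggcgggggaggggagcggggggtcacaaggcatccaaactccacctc

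Genes with the most similar pattern over the 4 tumours were found by the root mean square difference of their log2 deviations, over all 13129 expressed genes. For Apoa1 they were Nipal1 and Tmem86a, each at 0.04, and Apoa4 was 22nd at 0.13. For Apoa4 they were Mecom and Cyp2d26, each at 0.05, and Apoa1 was 9th. For Apoe they were Tmem205 (0.03) and Acaa2 (0.04), for Apoa2 Lyrm5 (0.04) and Il11ra1 (0.05), and for Apoc1 Pgpep1l and Ppm1k, each at 0.06. For Apoc3 they were Adamts15 (0.22), with 95.6 CPM in tumour 10 against 2.97, 3.62 and 2.46, and Tppp3 (0.25). The measure is not divided by a gene's spread, so its values cannot be compared between genes of unlike SD. The nearest to Apom were Espn (0.09) and Aig1 (0.11), and to Apoa5 Slc17a9 (0.15) and 2810007J24Rik (0.17). The nearest to Apob were Clcc1 and Snupn, each at 0.03, and to Mttp Sep15 and Khnyn, each at 0.02. With 4 tumours many genes share an order, so the likeness is a description.

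The other apolipoproteins were likewise highest in tumour 10 for the most part. The list counts among them Clu and the serum amyloid A genes Saa1, Saa2, Saa3 and Saa4, each highest in tumour 10 with TMM scaling. Of 11 listed genes 10 were expressed, and 9 of these 10 were highest in tumour 10, against 35.8% of all genes, with a median deviation of 1.35 log2 units there, against -0.41, -0.97 and -0.26 in tumours 1, 5 and 9. Over all expressed genes the median deviation in tumour 10 was 0.02. With total counts in place of TMM scaling, 7 of the 10 were highest in tumour 10, against 20.0% of all genes, with a median deviation of 1.03. Apoh, which binds phospholipids, had 1741 CPM in tumour 10, against 389, 333 and 856. Saa2, an acute phase protein carried on HDL, had the largest spread, with 17.5 CPM in tumour 10, against 11.0, 0.257 and 0.149. At an unadjusted p under 0.05 in the edgeR test, 5 of the 10 were higher in tumour 10, against 13.9% of all genes. Apoc2 was higher and Clu lower in tumour 9 at that level, against 3.76% and 1.9% of all genes. With adjustment over all genes and tumours, 0 of the genes of any list in this and the following paragraphs passed edgeR.

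Partners of apolipoprotein B in the secretory pathway had a spread near that of all genes. None of the 14 expressed genes for loading, editing and exporting it had an SD of log2 CPM of at least 1, against 16.6% of all genes, and their median SD was 0.38, against 0.45 for all genes. P4hb, the subunit that Mttp needs to stay soluble, had 1379.9 CPM in tumour 10, against 947, 1189 and 1456. Dgat2, which makes triglyceride, had 533 CPM in tumour 10, against 237, 314 and 318. Apobec1, the enzyme that edits the Apob message, had 42.3 CPM there, against 13.0, 11.5 and 25.7. At an unadjusted p under 0.05, 5 of the 14 were higher in tumour 10 and 0 lower, against 13.9% and 8.23% of all genes. With TMM scaling 9 of the 14 were highest in tumour 10, and with total counts 5 were, against 35.8% and 20.0% of all genes.

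HDL remodelling genes split. Scarb1, the HDL receptor, and Abca1, which exports cholesterol to Apoa1, were nearly flat, with 224, 232, 204 and 212 CPM and 124, 105, 119 and 131 CPM in tumours 10, 1, 5 and 9. Pon1, an HDL-bound esterase, had 67.9 CPM in tumour 10, against 26.8, 3.34 and 1.90. Over all expressed genes, 16.6% had an SD of log2 CPM of at least 1. Of the 9 genes, 5 had an SD of at least 1, and 3 were higher in tumour 10 at an unadjusted p under 0.05, against 13.9% of all genes. Among the lipase genes, 5 of 6 were highest in tumour 10, and 4 of 6 with total counts, against 35.8% and 20.0% of all genes. At an unadjusted p under 0.05, 4 of 6 were higher there, against 13.9% of all genes. Lpl, lipoprotein lipase itself, had 617 CPM in tumour 10, against 94.2, 159 and 310.4.

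Receptors and clearance genes had no common order: 2 of 10 were highest in tumour 10, against 35.8% of all genes. Their median deviation there was 0.04. With total counts 1 of the 10 was highest in tumour 10, against 20.0% of all genes. Lrp1, a remnant receptor, had 306 CPM in tumour 10, against 244, 137 and 275. Vldlr, a receptor for triglyceride-rich particles, had 0.0297 CPM in tumour 10, from 1 count, against 4.96, 8.22 and 0.335. At an unadjusted p under 0.05, 1 was higher and 2 were lower in tumour 10, against 13.9% and 8.23% of all genes. Among 14 transcription factors known to act on apolipoprotein genes, 11 were highest in tumour 10, and 7 with total counts, against 35.8% and 20.0% of all genes. At an unadjusted p under 0.05, 5 of the 14 were higher there, against 13.9% of all genes. Hnf4a, a master regulator of hepatocyte genes, had 809 CPM in tumour 10, against 508, 567 and 382, and Cebpa 395, against 153, 109 and 175. Ppargc1a, a coactivator, had the largest spread, with 6.57 CPM in tumour 10, against 15.7, 20.9 and 4.09.

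Markers of cell types varied over the same tumours. In bulk RNA, fewer cells of a type and less RNA per cell cannot be told apart. All 8 hepatocyte markers were expressed, 7 were highest in tumour 10 with either scaling, against 35.8% and 20.0% of all genes, and their summed level was 32816 CPM there, against 13397, 13591 and 15805 CPM in tumours 1, 5 and 9. Albumin (Alb) had 13400.1 CPM in tumour 10, against 4732, 4520.3 and 5594, and transferrin (Trf) 4112, against 4710.2, 5468 and 5048. All 11 macrophage markers were expressed and 7 were highest in tumour 9 with either scaling, against 21.6% and 29.6% of all genes. The 11 summed to 962 CPM there, against 289, 219 and 413 CPM in tumours 1, 5 and 10. The 6 neutrophil and 5 erythroid markers were all highest in tumour 9 with either scaling, against the same shares of all genes. Tumour 9 was also the library with the highest Apoa1 and Apoa4. These markers summed to 510.3 and 507 CPM there, against at most 19.9 and 100.9 CPM elsewhere. The 6 stellate cell and fibroblast markers summed to 105 CPM in tumour 10, against 383, 273 and 488, and the 5 endothelial markers to 86.2, against 70.6, 78.2 and 111. Of 7 enterocyte markers, considered because Apoa4 and Apob are also gut genes, Vil1 and Fabp2 were expressed, and the 7 summed to 40.5 CPM in tumour 10, against 16.9, 44.1 and 12.0 CPM in tumours 1, 5 and 9. Sis had 0 counts in all 4 libraries, and Cdx1, Cdx2 and Alpi had at most 0.112 CPM. The part of these cell types in the results was not tested.

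**Figure D5:**
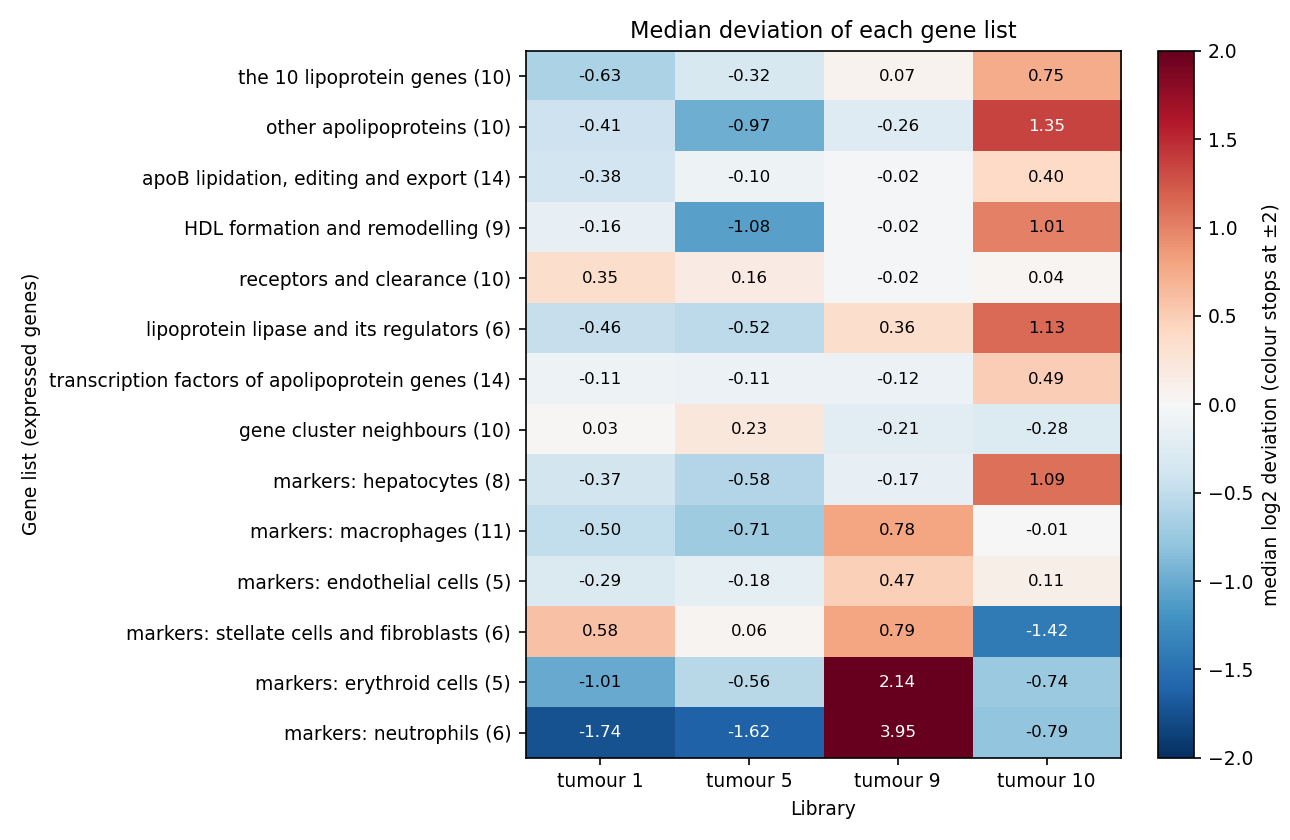
Median over the expressed genes of each list of log2 CPM minus the gene's 4-tumour mean, by tumour, with the number of genes in parentheses. Tumour 10 is the highest for hepatocyte markers (1.09) and other apolipoproteins (1.35), and tumour 9 for neutrophil (3.95) and erythroid markers (2.14).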

How the data were processed

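Poly-A RNA of 4 tumours was made into TruSeq libraries, per the labels' protocols, and the submitters' processing notes name FastQC 0.11.8 and GRCm38. Which aligner and counter made the tables is not given in the sources used here. There are 33984 rows, 1 per RefSeq transcript, in every table. The deposited counts are whole, unnormalized read numbers. The deposited FPKM, per the file headers, gave whole transcript lengths (within 0.01 bases in 100% of detected rows) and served only for those, and the deposited TPM, per the file headers, summed to 1000000 and was not used otherwise. Rows of a gene share reads, so each gene was represented by its row with the highest mean count.

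Counts were tested in R 4.3.3 with edgeR 4.0.16 (TMM factors 1.10, 1.03, 1.10 and 0.802 for tumours 1, 5, 9 and 10) and, as an alternative, DESeq2 1.42.0. Scaling by total counts alone moves the median gene by 0.14, 0.04, 0.13 and -0.32 log2 units. Levels and log2 differences in the text are relative to TMM unless total counts or DESeq2 are named. The shares of gene counts use raw counts. CPM use TMM-scaled totals, log2 CPM a prior count of 2, and expressed genes a mean of at least 1 CPM. Tests were two-sided with a threshold of 0.05, and the lone tumour was assumed to vary like the other 3. An SE is the log2 difference divided by the root of edgeR's F. The tests were first tried on simulated data with known answers.

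The 10 genes and the 14 other lists (122 entries, all matched, 3 by RefSeq accession under other symbols) were chosen with earlier results of these data known. Named genes were fixed by rule: the 10 genes, Myc and Pmepa1, per list the 2 highest and the 1 with the largest SD, and per gene the 2 nearest in pattern (other names were chosen after their values were seen). Not every gene named by this rule is reported here. Coordinates are GENCODE M21 on GRCm38.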

Additional observations from a re-analysis of the deposited data

Results flagged for a closer look

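Of 18 values examined over the 4 tumours, 6 had 1 library far from the others. Its gap to the nearest, as a share of the whole range, was above Dixon's 95% critical value. Chance flags about 1 in 20 such groups only if the values are normally distributed. That was not tested, and the values were not logged. The share of all genes flagged by this rule was not computed. Tumour 10 was the high library in 5 of the 6. The gap was 0.986 of the range for Apoc3 CPM, 0.891 for Apoc1 CPM and 0.881 for Apoa2 CPM. It was 0.956 for the ratio of Apoc3 to Apoa1 and 0.839 for the ratio of Apoa5 to Apoa4, both per transcript length. Tumour 1 was the low library for Mttp CPM, with a gap of 0.850 of a range that spans 1.52 times. These values share libraries, so the flags are not independent.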

How the results depend on the processing

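The number of genes beyond counting error was 10 under every alternative. The number called in tumour 10 by edgeR over all genes and tumours, 0, was 1 without the filter on low genes, 3 with adjustment for that tumour alone and 5 with DESeq2, and 0 to 5 when 1 tumour was left out. In tumour 5 DESeq2 called 1, and leaving out 1 tumour gave 0 to 0 in tumours 1, 5 and 9. The median SD of log2 CPM was 0.77 with total counts and 0.40 to 1.11 with 1 tumour left out. The mean deviation of the 10 genes was -0.57, -0.56, 0.19 and 0.93 in tumours 1, 5, 9 and 10, with ranges of -0.75 to -0.25, -0.74 to -0.25, 0.00 to 0.50 and 0.74 to 0.97 when 1 tumour was left out. The number of genes highest in tumour 9, 3, was 3 to 8 and that in tumour 10, 7, was 7 to 8 with 1 tumour left out, and both of these numbers were added after the data were seen. Of 20 log2 differences of at least 1 in size, 3 turned round, all without tumour 10: with 1 tumour left out, Apoc1 in tumour 1 ranged from -1.91 to 0.048, Apoc1 in tumour 9 from -1.504 to 0.61, and Apoc3 in tumour 1 from -3.69 to 0.47. The sum over transcript rows counts shared reads again. It gave mean ratios of 0.195 for Apoc1 to Apoe, 0.790 for Apoc3 to Apoa1 and 1.88 for Mttp to Apob, and shares of 0.651%, 0.749%, 1.21% and 1.57% of gene counts. DESeq2 size factors and a prior count of 0.5 changed no count of these. No paired analysis was possible because all libraries belong to 1 group. With 4 tumours, precision is limited by their number and not by depth.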
